A study of Mus musculus with 6 samples.

Results

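Microglia identity genes are genes that set the macrophages of the brain tissue apart from other macrophages. Of the 34652 genes in the deposited expression table, 8 were taken by their symbols: Tmem119, Fcrls, Sall1, Olfml3, Sparc, Crybb1, Bin1 and Cst3, and all 8 were found. They were followed in 6 bulk RNA libraries, made from macrophages sorted out of cerebrospinal fluid in mice with leptomeningeal metastasis, a spread of tumor cells into the membranes and fluid around the brain. The resident macrophages, called dLAM in the labels, were sorted as CD45+CD11b+F4/80+Ly6C-GFP+ cells (n = 3). The monocyte-macrophages, called Mono-MΦ, were a mixture of GFP- cells that were CD45+CD11b+ and either F4/80+ or F4/80low with Ly6C (n = 3). Both populations came from Cx3cr1CreER:mTmG mice treated with tamoxifen, on day 12 of a tumor seeded with LLC-LeptoM cells (derived from Lewis lung carcinoma). The mTmG reporter turns on GFP in a cell where Cre has acted, and the Cx3cr1 locus drives that Cre, so the green label marks the past activity of Cx3cr1 and does not by itself name a cell type. The sources used here give no age, no time of tamoxifen and no number of mice per library, so the p-values reflect library-to-library spread that may be partly technical.

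Microglia settle in the brain early in development and keep themselves there, and their identity depends on TGF-beta signalling and on transcription factors such as PU.1 and, in the mouse, Sall1. When microglia are activated in disease they are known to lower many of these identity genes and to raise others, among them Apoe, Itgax and Axl. Macrophages of the brain's borders are close relatives that carry other markers, such as Mrc1. Several of the 8 genes are used outside microglia as well. Sparc is made by fibroblasts, endothelial cells and platelets, Bin1 by many tissues, Cst3 by most cells and strongly by dendritic cells, and Crybb1 is best known from the lens.

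Levels are in FPKM, the fragments of a gene relative to its length and to the library's size, so levels of different genes can be compared per length. Each library held an estimated 1.23e+07 to 1.70e+07 fragments, and between 10281 and 11470 genes reached 1 FPKM. The labels were first checked for macrophage RNA. Csf1r, a receptor that macrophages need to survive, was at 276, 256 and 219 FPKM in dLAM libraries 1, 2 and 3, against 147, 112 and 104 FPKM in Mono-MΦ libraries 1, 2 and 3, so it was present in both populations and does not tell resident from monocyte-derived cells. The dLAM libraries also held RNA of T cells, with Cd3e at 40.6, 35.3 and 42.5 FPKM against 1.17, 5.20 and 5.15 FPKM in the Mono-MΦ libraries, although the gates asked for macrophage proteins. In bulk RNA, a smaller share of cells of a type and less RNA per cell cannot be told apart.

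The regions just before the start sites are shown for 3 of the genes, chosen because Fcrls had the largest difference between the populations, Cst3 the highest level, and Crybb1 was the member whose groups overlapped. RefSeq gave such regions, of 300 bases with 250 before and 50 after a start site on GRCm38.p6, for 6 of the 8 genes. Capitals mark GAGGAA, a form of the site of PU.1, and CAGAC, a form of the site of SMAD proteins, each on either strand; the letters of these 2 motifs do not overlap in the regions shown. The Fcrls region is chr3:87263475-87263774, the Cst3 region chr2:148875463-148875762 (both on the minus strand), and the Crybb1 region chr5:112255570-112255869 on the plus strand.
Fcrls: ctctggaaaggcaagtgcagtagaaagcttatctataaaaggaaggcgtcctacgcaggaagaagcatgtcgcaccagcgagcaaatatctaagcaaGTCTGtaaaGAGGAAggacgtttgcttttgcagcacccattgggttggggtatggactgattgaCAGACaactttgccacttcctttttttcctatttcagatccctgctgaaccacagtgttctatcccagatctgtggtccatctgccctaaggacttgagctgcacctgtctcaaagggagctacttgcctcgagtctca
Cst3: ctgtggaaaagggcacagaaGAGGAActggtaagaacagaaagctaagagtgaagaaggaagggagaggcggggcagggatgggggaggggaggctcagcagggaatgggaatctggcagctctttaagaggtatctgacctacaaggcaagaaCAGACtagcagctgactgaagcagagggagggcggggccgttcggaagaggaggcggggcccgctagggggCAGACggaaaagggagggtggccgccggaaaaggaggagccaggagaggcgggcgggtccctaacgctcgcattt
Crybb1: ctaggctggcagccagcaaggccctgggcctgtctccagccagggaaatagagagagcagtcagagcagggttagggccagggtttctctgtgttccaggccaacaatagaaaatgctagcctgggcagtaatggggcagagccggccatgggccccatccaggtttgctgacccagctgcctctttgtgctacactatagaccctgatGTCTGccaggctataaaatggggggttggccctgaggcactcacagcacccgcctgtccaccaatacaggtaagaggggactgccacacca
GAGGAA was found in the regions of Fcrls and Cst3 and in 28.3% of 32851 such regions of all genes. CAGAC was found in regions of 5 of the 6 genes, all but Olfml3 (for Sall1 in 1 of its 3 regions), and in 49.6% of all regions. The count of 5 is by gene and the share is by region, so they are not like measures. The MAF motif TGCTGAC was found, again on either strand, in the regions of Crybb1 and Sparc and in 4.67% of all regions. The MEF2 motif, CTA and TAG with 4 bases between them, and the ETS-IRF motif, GGAA and GAAA with 2 bases between them, in 3.69% and 2.72% of all regions, were found in none of the 6 genes' regions. The regions also differed in CpG pairs, with 39, 27 and 18 in the 3 start regions of Sall1, 13 in that of Cst3, 8 in Olfml3, 6 in Fcrls, 4 in Sparc and 2 in Crybb1, where the median of all regions was 7. These are matches of letters in short windows and describe no binding.

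Of the 8 genes, 7 were higher in dLAM than in Mono-MΦ, and Crybb1 could not be tested because it reached 1 FPKM in only 2 libraries. The test was limma on log2(FPKM + 1) with Benjamini-Hochberg adjustment over the 11317 genes that reached 1 FPKM in at least 3 libraries. Over all of these genes, 19.9% were higher in dLAM and 10.6% lower. Fcrls, Sall1 and Sparc passed the filter through the dLAM libraries alone, being under 1 FPKM in each Mono-MΦ library, so their passing already implied a difference, and the count of 7 carries no weight of its own. Olfml3 reached 1 FPKM in Mono-MΦ library 3 but not in Mono-MΦ libraries 1 and 2, so it too needed the dLAM libraries to pass. For Tmem119, Bin1 and Cst3, all 6 libraries were above 1 FPKM. The members called were also 7 of 7 with the replicate number as a block and in the 4 libraries with less Y-linked RNA (background 16.4% and 13.1%), and at a filter of 5 FPKM the 4 members left were called (background 19%), of which Fcrls and Tmem119 passed that filter through the dLAM libraries alone. In all 7 genes the lowest dLAM library stood above the highest Mono-MΦ library, as it did for 29.3% of the tested genes.

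**Figure D1:**
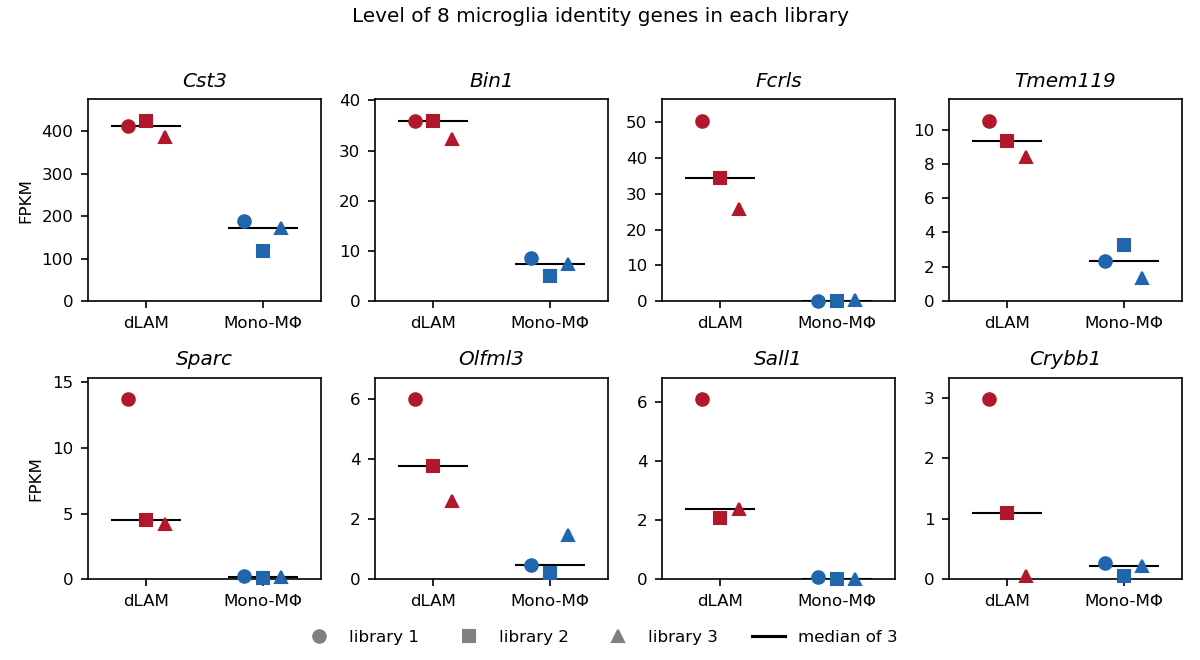
Level of each of the 8 genes in FPKM (vertical axis, starting at 0, with its own scale in each panel) in the 3 dLAM libraries (red, left) and the 3 Mono-MΦ libraries (blue, right), the symbols giving the library number and the line the median of 3. Except for Crybb1, the dLAM points lie above the Mono-MΦ points in each panel, and dLAM library 1 is the highest point of the panel for 6 genes.

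The surface proteins come first. Fcrls encodes an Fc receptor-like scavenger receptor that in the mouse is used as a marker of microglia (mm10, chromosome 3, 87250758 to 87263738). It was at 50.5, 34.3 and 25.7 FPKM in dLAM libraries 1, 2 and 3, while Mono-MΦ libraries 1 and 2 were listed at 0 and library 3 at 0.154 FPKM. Every dLAM library was thus far above every Mono-MΦ library, the lowest of them 167-fold above the highest Mono-MΦ value, and the gene belonged to the top 5% of the table in each dLAM library (95.2% to 97.8% of genes lay below it). Its log2 fold change was 5.12 (SE 0.23, limma adjusted p = 1.7e-05), the seventh largest rise of all tested genes. With the exon length of the annotation, the dLAM values stand for about 1743, 986 and 745 fragments and the single Mono-MΦ value for about 6.11.

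Tmem119 encodes a membrane protein of microglia that is the usual antibody target to tell them from blood-derived macrophages (chromosome 5, 113793729 to 113800516). It was at 10.5, 9.36 and 8.40 FPKM in dLAM libraries 1, 2 and 3, against 2.35, 3.26 and 1.32 FPKM in Mono-MΦ libraries 1, 2 and 3. The groups did not overlap, but unlike Fcrls the gene was measured above 1 FPKM in every Mono-MΦ library, at about 74.5, 106 and 52.1 fragments. The means were 9.43 ± 1.06 FPKM in dLAM and 2.31 ± 0.968 FPKM in Mono-MΦ (SD, n = 3), and the log2 fold change was 1.69 (SE 0.22, limma adjusted p = 0.0011).

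Sall1 encodes a zinc finger transcription factor that, in the mouse, keeps microglia in their resting identity (chromosome 8, 89027235 to 89044162). It was at 6.10, 2.09 and 2.39 FPKM in dLAM libraries 1, 2 and 3 and at 0.0695 FPKM in Mono-MΦ library 1, while Mono-MΦ libraries 2 and 3 were listed at 0. The level was low also in dLAM, where library 1 had 2.72 times the mean of libraries 2 and 3, yet the groups stood clearly apart (log2 fold change 2.04, SE 0.30, limma adjusted p = 0.0020). The 3 dLAM values correspond to about 475, 135 and 156 fragments and that of Mono-MΦ library 1 to about 5.01. On the log2(FPKM + 1) scale such a change at low level is understated, and with a pseudocount of 0.1 it was 4.76.

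Sparc and Olfml3 encode secreted proteins. Sparc, a collagen-binding glycoprotein of the matrix (chromosome 11, 55394500 to 55423183), was at 13.7, 4.48 and 4.17 FPKM in dLAM libraries 1, 2 and 3, against 0.231, 0.129 and 0.159 FPKM in Mono-MΦ libraries 1, 2 and 3. The Mono-MΦ values were close together and low, whereas dLAM library 1 stood 3.16-fold above the mean of the other dLAM libraries. The ratio of the means was 43.0 and the log2 fold change 2.67 (SE 0.37, limma adjusted p = 0.0016), which became 2.18 without dLAM library 1 and 4.58 with a pseudocount of 0.1.

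Olfml3 encodes an olfactomedin-like protein (chromosome 3, 103722222 to 103738001). It was at 5.997, 3.77 and 2.61 FPKM in dLAM libraries 1, 2 and 3, against 0.467, 0.198 and 1.47 FPKM in Mono-MΦ libraries 1, 2 and 3. Here the groups came closest among the 7 tested genes: the lowest dLAM library was 1.78-fold above Mono-MΦ library 3, the highest of its group. The log2 fold change was 1.60 (SE 0.32, limma adjusted p = 0.0085), and the means were 4.13 ± 1.72 FPKM in dLAM and 0.712 ± 0.671 FPKM in Mono-MΦ (SD, n = 3).

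Cst3 encodes cystatin C, a secreted inhibitor of cysteine cathepsins (chromosome 2, 148871722 to 148875692). It was at 412, 424 and 386 FPKM in dLAM libraries 1, 2 and 3, against 187, 119 and 171 FPKM in Mono-MΦ libraries 1, 2 and 3. It ranked between 55 and 67 from the top of the table in dLAM and between 178 and 279 in Mono-MΦ, so it was abundant in both populations. The means were 407 ± 19.8 FPKM in dLAM and 159 ± 36.0 FPKM in Mono-MΦ (SD, n = 3), a ratio of 2.56, and the log2 fold change of 1.38 was the smallest of the 7 tested genes (SE 0.18, limma adjusted p = 0.0012). Even so, 95.2% of all tested genes had a lower log2 fold change.

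Bin1 encodes an adaptor that bends membranes in endocytosis (chromosome 18, 32377230 to 32435737). It was at 35.8, 35.9 and 32.2 FPKM in dLAM libraries 1, 2 and 3, against 8.55, 4.96 and 7.31 FPKM in Mono-MΦ libraries 1, 2 and 3. The dLAM libraries lay close together, and the lowest of them was 3.77-fold above the highest Mono-MΦ library. The means were 34.7 ± 2.11 FPKM in dLAM and 6.94 ± 1.82 FPKM in Mono-MΦ (SD, n = 3), and the log2 fold change was 2.19 (SE 0.17, limma adjusted p = 1.4e-04). The antisense gene A830052D11Rik overlaps its exons, and strand handling is not given in the sources used here, but that gene was at no more than 0.144 FPKM in any library.

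Crybb1 encodes a beta-crystallin (chromosome 5, 112255815 to 112269585) and was the exception. It was at 2.97, 1.09 and 0.0600 FPKM in dLAM libraries 1, 2 and 3, against 0.272, 0.0530 and 0.219 FPKM in Mono-MΦ libraries 1, 2 and 3. Libraries 1 and 2 of dLAM lay above all Mono-MΦ libraries, and dLAM library 3 lay below 2 of them, so the groups overlapped. With the exon length of the annotation these values stand for few fragments, about 43.3, 13.2 and 0.734 in dLAM and about 3.67, 0.734 and 3.67 in Mono-MΦ. Without a filter on low values the log2 fold change was 0.81 (SE 0.45) with a limma adjusted p of 0.29, where 13% of 22145 genes were called higher in dLAM. A difference was thus not detected, with a wide spread between the dLAM libraries.

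By their medians in dLAM, the genes ranked from Cst3 (412 FPKM) through Bin1 (35.8), Fcrls (34.3), Tmem119 (9.36), Sparc (4.48), Olfml3 (3.77) and Sall1 (2.39) to Crybb1 (1.09). The ranges of Bin1 and Fcrls overlapped over the dLAM libraries, as did those of Tmem119 and Sparc, Sparc and Olfml3, Olfml3 and Sall1, and Sall1 and Crybb1, whereas Cst3 was apart from all others and Fcrls was apart from Tmem119. In Mono-MΦ the order was another: Cst3 (171 FPKM), Bin1 (7.31) and Tmem119 (2.35) led by their medians, and Fcrls and Sall1 had medians listed at 0.

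**Figure D2:**
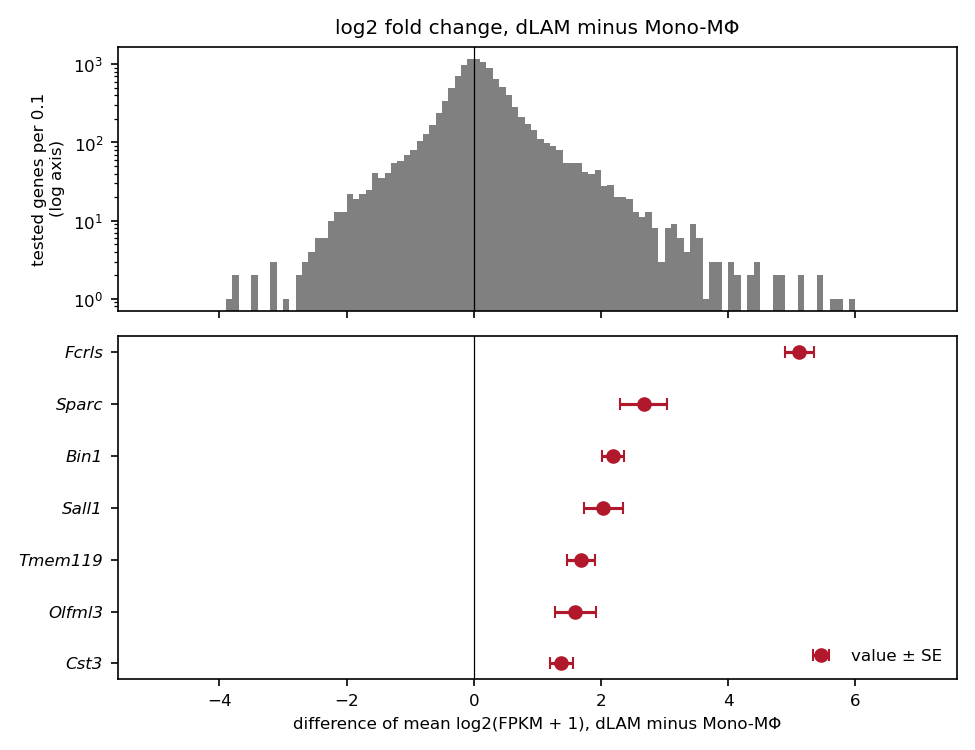
Upper panel, number of tested genes (vertical log axis) by their log2 fold change, dLAM minus Mono-MΦ on the log2(FPKM + 1) scale. Lower panel, the 7 tested members on the same horizontal axis with bars of 1 SE, running from 1.38 for Cst3 to 5.12 for Fcrls.

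The dLAM libraries differed among themselves in these genes. Library 1 was the highest dLAM library for 6 of the 8 genes, all but Bin1 and Cst3, against 26.9% of all tested genes. Its level was at least 1.5 times the mean of dLAM libraries 2 and 3 for 5 of the 8, namely Crybb1 (5.17), Sparc (3.16), Sall1 (2.72), Olfml3 (1.88) and Fcrls (1.68), against 2.04% of all tested genes. Crybb1 is in both counts but was not among the tested genes that give these shares. Of the 7 tested members, library 1 was the highest dLAM library for 5. For Tmem119, Bin1 and Cst3 the ratios were 1.18, 1.05 and 1.02. Other lists leaned towards library 1 too: it was the highest dLAM library for 21 of 26 other microglia genes with a median ratio of 1.27, but also for 11 of 13 monocyte genes with a median ratio of 1.26. Border macrophage genes had a median ratio of 1.07 and dendritic cell markers of 0.720. The markers of mast cells and basophils summed to 37.5, 25.0 and 14.5 FPKM in dLAM libraries 1, 2 and 3, against 0.285, 0.547 and 0.742 FPKM in Mono-MΦ libraries 1, 2 and 3. Their part in the differences between dLAM libraries was not tested. With library 1 left out, all 7 genes were still higher in dLAM, with limma adjusted p-values of at most 0.0305, where 14.6% of tested genes were called higher.

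**Figure D3:**
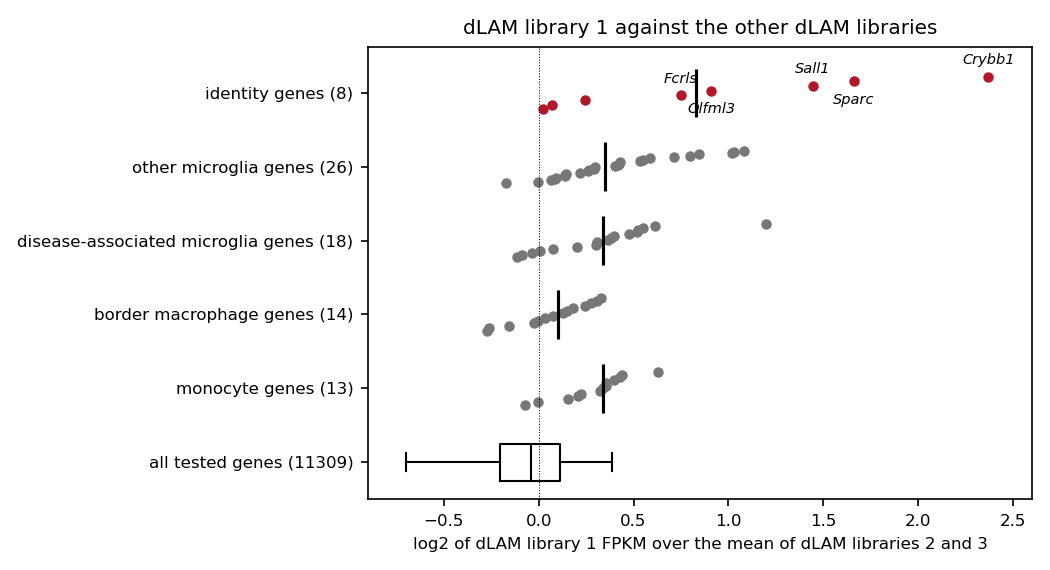
Ratio, as log2, of the FPKM in dLAM library 1 to the mean of dLAM libraries 2 and 3 for the 8 members (red) and the tested genes of 4 other lists (grey), with a vertical line at each median. The box for 11309 tested genes spans the quartiles with whiskers at the 5th and 95th percentiles, genes without a finite ratio being left out. Among the members, Crybb1, Sparc and Sall1 lie farthest to the right.

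Close relatives of the 8 genes gave a point of comparison. Of the other SALL factors, Sall2 was higher in dLAM at 1.94, 2.05 and 3.08 FPKM against 0.336, 0.367 and 0.151 FPKM in Mono-MΦ (log2 fold change 1.37, SE 0.17, limma adjusted p = 8.5e-04), Sall3 was at 1.06, 0.472 and 0.409 FPKM in dLAM and listed at 0 in each Mono-MΦ library, and Sall4 was listed at 0 in all 6. Among Fc receptor-like genes, Fcrlb rose by 1.75 and Fcrla by 1.02 on the log2 scale, Fcrla not passing after quantile normalization. Fcrlb stood at 12.4, 7.72 and 10.2 FPKM in dLAM against 2.16, 2.77 and 1.88 FPKM in Mono-MΦ, so unlike Fcrls it was above 1 FPKM in all 6 libraries. Sall2 and Fcrla were under 1 FPKM in every Mono-MΦ library and so were tested through dLAM alone, which fixed their direction in part. Fcrl1, Fcrl5 and Fcrl6 stayed under 1 FPKM. The summed markers of B and plasma cells given below were also higher in every dLAM library than in every Mono-MΦ library. Their part in the rises of Fcrla and Fcrlb was not tested.

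Relatives of Olfml3, Bin1 and Cst3 gave mixed results. Olfml2b fell by 1.59 on the log2 scale, with 2.58, 1.81 and 2.42 FPKM in dLAM against 3.47, 12.1 and 15.0 FPKM in Mono-MΦ (limma adjusted p = 0.029). That call did not hold in 7 of 15 alternatives, which were the fit without the filter, the 4 libraries with less Y-linked RNA and the fits lacking dLAM library 1, 2 or 3 or Mono-MΦ library 2 or 3, where adjusted p lay between 0.070 and 0.16. Bin3, a relative of Bin1, fell by 0.44 (limma adjusted p = 0.019, lost without dLAM library 1, dLAM library 2 or Mono-MΦ library 2 and on the TPM scale), and Bin2 had a log2 fold change of -0.40, which did not pass (limma adjusted p = 0.20) except with a term for Y-linked RNA (0.023). Of the cystatins, Cst7, an inhibitor known from activated microglia, was at 17.3, 6.26 and 8.82 FPKM in dLAM against 2.52, 4.62 and 3.63 FPKM in Mono-MΦ (log2 fold change 1.28, limma adjusted p = 0.024). That call did not hold with the replicate block (adjusted p = 0.061), in the 4 libraries with less Y-linked RNA, in the fit without the filter, or in those lacking dLAM library 3, Mono-MΦ library 1 or Mono-MΦ library 3. Cstb had a log2 fold change of 0.27 that did not pass. No relative of Sparc or of Crybb1 reached 1 FPKM in 3 libraries.

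Of 30 other microglia genes, 26 could be tested, 22 were higher in dLAM (19.9% of all tested genes were) and 0 lower by limma, with a median log2 fold change of 1.59 where the median of all tested genes was 0.06. At an unadjusted p under 0.05, 1 was lower, Tyrobp, which also passed without the mean-variance trend. Of the 22, 10 were under 1 FPKM in every Mono-MΦ library and so were tested through the dLAM libraries alone, which fixed their direction in part. The largest rises were those of Hpgds, a prostaglandin D synthase (2.86), Plxdc2, a plexin-domain protein (2.79), and Lag3, a receptor shared with T cells (2.74). Each of these was among the 10 tested through the dLAM libraries alone. The purinergic receptor P2ry12, a standard marker of resting microglia, was at 4.31, 2.59 and 3.85 FPKM in dLAM against 0.974, 1.52 and 1.17 FPKM in Mono-MΦ (log2 fold change 1.03, SE 0.18, limma adjusted p = 0.0046). Its level in dLAM was thus close to those of Sall1 and Olfml3. Siglech, also a marker of plasmacytoid dendritic cells, was at 4.90, 3.90 and 2.80 FPKM in dLAM against 0.344, 0.414 and 0.0728 FPKM in Mono-MΦ. The genes that did not pass were Tyrobp, a signalling adaptor gene, Selplg, Cd33 and Adora3, at -0.37, 0.18, -0.01 and -0.14 on the log2 scale, though Selplg was called higher without Mono-MΦ library 1.

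The 5 genes whose pattern over the 6 libraries was most like the mean of the 7 tested members were Gpr34, Cltc, Arl3, Clstn1 and Lag3, with Pearson's r between 0.996 and 0.999. This is a description of 6 libraries in 2 groups, and 800 genes reached 0.95. Gpr34, a receptor of microglia, was at 10.2, 6.20 and 5.55 FPKM in dLAM against 0.429, 0.0545 and 0.255 FPKM in Mono-MΦ, and Clstn1 at 3.36, 2.11 and 2.01 against 0.339, 0.232 and 0.394 FPKM. Cltc, the clathrin heavy chain, differed far less in level, with 107, 98.9 and 97.5 against 78.8, 74.8 and 77.8 FPKM.

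Genes that act upstream of microglial identity were counted next. Of 12 transcription factors of microglia, 7 were higher in dLAM and 1 lower, beside 19.9% and 10.6% of all tested genes (median log2 fold change 0.52). With the replicate block 5 were higher (background 16.4%). The largest rises were those of Etv5 (2.19), Bhlhe41 (1.71) and Bhlhe40 (1.49), while Tfec fell by 0.66. Bhlhe41 was under 1 FPKM in every Mono-MΦ library and so was tested through dLAM alone. Spi1, which encodes PU.1, had 88.0, 94.0 and 90.9 FPKM in dLAM against 107, 99.8 and 86.7 FPKM in Mono-MΦ, overlapping groups that did not pass (log2 fold change -0.10, limma adjusted p = 0.55). Of 12 tested TGF-beta genes, 5 were higher and 0 lower by limma, with a median of 0.48, again beside 19.9% and 10.6% of all tested genes. At an unadjusted limma p under 0.05, the counts were 7 higher and 0 lower, beside 2970 and 1711 of the 11317 tested genes. The TGF-beta target Pmepa1 rose by 3.07, to 11.3, 8.82 and 9.26 FPKM in dLAM against 0.443, 0.140 and 0.262 FPKM in Mono-MΦ. Like Bhlhe41, Pmepa1 was thus tested through dLAM alone. The receptors Tgfbr2 and Tgfbr1 rose by 1.82 and 1.21. The ligand Tgfb1 and the signal carriers Smad2, Smad3 and Smad4 did not pass, at -0.01, 0.02, 0.11 and -0.22 on the log2 scale; with median-of-ratios scaling Smad4 was called lower.

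Genes of activated microglia and of border macrophages were higher in the same libraries. Of 18 genes known from disease-associated microglia, 12 were higher in dLAM and 0 lower by limma, beside 19.9% and 10.6% of all tested genes. The median log2 fold change was 1.11. The largest rises were those of the receptor tyrosine kinase gene Axl (3.85), the integrin gene Itgax (3.32) and the apolipoprotein gene Apoe (2.12). At an unadjusted limma p under 0.05, the counts were 15 higher and 0 lower, beside 2970 and 1711 of the 11317 tested genes. The summed dendritic cell markers given below were also higher in every dLAM library than in every Mono-MΦ library. Their part in the rises of Axl, Itgax and Apoe was not tested. Among border macrophage genes, 13 of the 14 tested rose (again beside 19.9% of all tested genes) and 1, F13a1, fell by 2.35 (median 2.49). Of the 13, 5 were under 1 FPKM in every Mono-MΦ library and were tested through dLAM alone. The mannose receptor gene Mrc1 was at 120, 112 and 104 FPKM in dLAM against 7.22, 4.74 and 10.4 FPKM in Mono-MΦ, and Stab1 and Pf4 rose by 3.28 and 3.21. Of the 8 members, only Cst3 exceeded Mrc1 in level in the dLAM libraries. Of 13 monocyte genes, 10 were lower in dLAM and 0 higher by limma, beside 10.6% and 19.9% of all tested genes. At an unadjusted limma p under 0.05, the count of higher genes was also 0. Chil3, Hp and Ly6c2 fell by 3.50, 2.75 and 2.64. Ly6C was part of the sort, so Ly6c2 describes the gate. The Mono-MΦ libraries also held more neutrophil RNA. The 7 neutrophil markers summed to 878, 3226 and 5316 FPKM in Mono-MΦ libraries 1, 2 and 3, against 669, 690 and 478 FPKM in dLAM libraries 1, 2 and 3. By limma 3 of them were lower in dLAM and 0 higher, beside 10.6% and 19.9% of all tested genes. Their part in the falls of the monocyte genes was not tested.

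**Figure D4:**
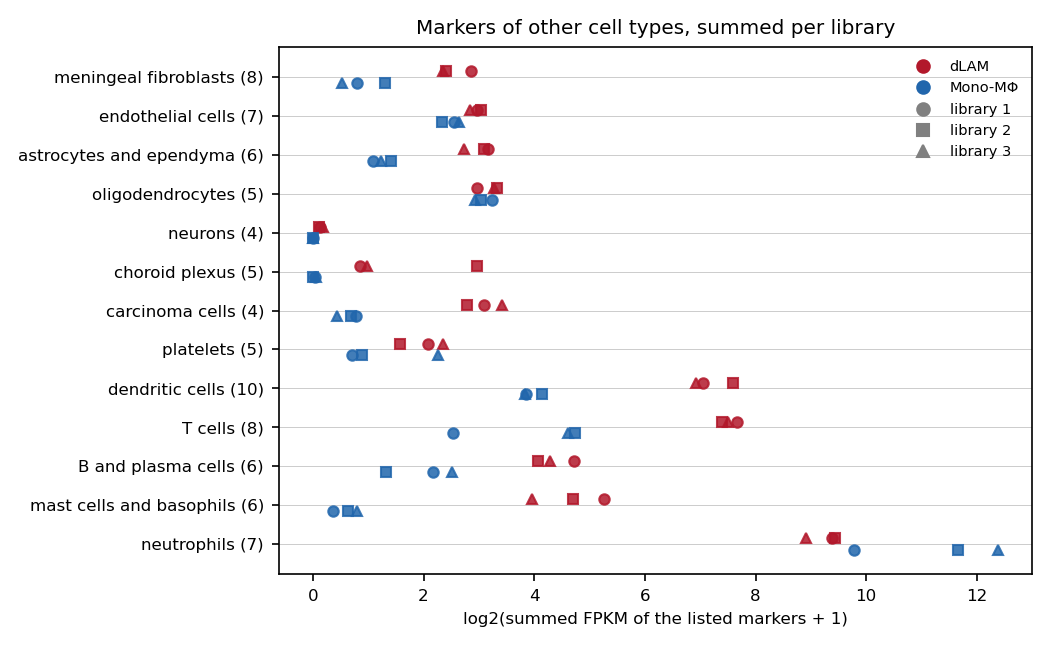
Summed FPKM of marker genes of 13 other cell types, as log2 of the sum plus 1, in the dLAM libraries (red) and the Mono-MΦ libraries (blue), the number of markers being given in brackets and the symbols giving the library number. T cell and dendritic cell markers stand far apart between the groups, and neuron markers lie near 0.

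Markers of other cells that could carry the same RNA were measured beside the members. For Sparc, the 8 markers of meningeal fibroblasts summed to between 4.14 and 6.29 FPKM in dLAM and between 0.433 and 1.47 FPKM in Mono-MΦ. Col1a1, a defining collagen of fibroblasts, was at 1.78, 1.17 and 0.941 FPKM in dLAM against 0.221, 0.523 and 0.110 FPKM in Mono-MΦ. Of the endothelial markers, Kdr was at 1.33, 1.39 and 1.002 FPKM in dLAM against 0.189, 0.0811 and 0.238 FPKM in Mono-MΦ (limma adjusted p = 0.0019), and Cdh5 at 0.678, 1.18 and 1.21 FPKM in dLAM against 0.257, 0.464 and 0.472 FPKM in Mono-MΦ. Kdr was under 1 FPKM in every Mono-MΦ library and so was tested through dLAM alone. Pecam1 and Flt1 did not pass, while Cldn5 and Emcn were listed at 0 in 5 of the 6 libraries each. All 7 endothelial markers summed to between 6.13 and 7.26 FPKM in dLAM against 4.02 to 5.24 FPKM in Mono-MΦ. The 5 platelet markers summed to 1.98 to 4.08 FPKM in dLAM and 0.633 to 3.77 FPKM in Mono-MΦ. The fibroblast sum was higher in every dLAM library than in every Mono-MΦ library and highest in dLAM library 1, as Sparc was. The part of these cells in the result was not tested.

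For Cst3 and Bin1, which dendritic cells and lymphocytes also express, the other cell lists moved too: 9 of 10 dendritic cell markers and 8 of 8 for T cells rose in dLAM, beside 19.9% of all tested genes. Of these, 8 dendritic cell markers and 1 T cell marker were under 1 FPKM in every Mono-MΦ library and were tested through dLAM alone. The dendritic cell markers summed to 132, 192 and 121 FPKM in dLAM libraries 1, 2 and 3, against 13.4, 16.6 and 13.3 FPKM in Mono-MΦ libraries 1, 2 and 3, and the T cell markers to 201, 167 and 179 against 4.78, 25.5 and 23.5 FPKM. The 6 markers of B and plasma cells summed to 15.9 to 25.2 FPKM in dLAM against 1.49 to 4.69 FPKM in Mono-MΦ. Their part in the differences of Cst3 and Bin1 was not tested. For Sall1, which other neural and epithelial cells can use, the neuron markers summed to at most 0.134 FPKM in any library, the astrocyte markers to 5.66 to 7.94 FPKM in dLAM against 1.11 to 1.67 FPKM in Mono-MΦ, mostly Aldoc, and the defining astrocyte markers Gfap and Aqp4 reached at most 1.03 and 0.1596 FPKM. In the choroid plexus list, Ttr was at 0.776, 6.47 and 0.925 FPKM in dLAM and listed at 0 in each Mono-MΦ library. Among the 4 markers of carcinoma cells, which are epithelial, Epcam was at 5.86, 4.70 and 7.50 FPKM in dLAM against 0.0716, 0.279 and 0.144 FPKM in Mono-MΦ (limma adjusted p = 7.5e-05). Krt18 was at 1.69, 1.10 and 1.495 FPKM in dLAM against 0.522, 0.305 and 0.210 FPKM in Mono-MΦ (limma adjusted p = 0.0053), and Krt8 and Krt19 stayed under 0.5 FPKM. Epcam and Krt18 were under 1 FPKM in every Mono-MΦ library and so were tested through dLAM alone. The part of the listed cells in the difference of Sall1 was not tested.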

How the data were processed

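Cells of the cerebrospinal fluid were sorted by flow cytometry, total RNA was taken up on a column, and read pairs of 150 bp were sequenced on an Illumina instrument, per the labels' protocols. The design text mentions 10 samples; 6 libraries were analysed here, grouped by their titles and cell type labels. Per the submitters' processing notes, HISAT2, featureCounts, FastQC and mm10 were used; their versions and settings, the strand handling and the annotation were not given in the sources read here.

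The authors deposited FPKM in a table of 34652 genes, and tests for counts were not applied. Fragment totals were inferred from the lowest steps of the values with exon lengths of GENCODE M21, which is on the build mm10 (94.3% of symbols matched 1 gene). Of low values, under 20 reads, 40.7% to 44.3% fell within 0.02 of a whole read, too few to recover counts, and a read adds 0.0294 to 0.0406 FPKM to a gene of 2 kb. Some zeros may be missing values, since 4 genes had a 0 in a single library while all others exceeded 5 FPKM, so no mean or SD is given for a group with a zero.

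Genes with at least 1 FPKM in at least 3 libraries were tested with limma 3.58.1 (R 4.3.3) on log2(FPKM + 1), with a mean-variance trend and a term for the group. A gene passed at an adjusted p (Benjamini-Hochberg) under 0.05. The fit was tested on simulated data. Log2 fold changes are dLAM minus Mono-MΦ. Tables and plots used Python 3.11.15, pandas 2.3.3, numpy 2.4.6 and matplotlib 3.10.9.

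The members and all lists were chosen with earlier results of these data known. Named were all members, the 3 called genes with the largest absolute change of each list and any that went against its list, each relative that could be tested, and the 5 genes most like the members. Csf1r, P2ry12, Siglech, Spi1, list genes that did not pass and markers of other cells were named after their values were seen. Each result was recomputed under up to 16 alternatives. The deviations of same-numbered libraries of both groups correlated at no more than 0.19.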

Additional observations from a re-analysis of the deposited data

How the results depend on the processing

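Among the tested members, all kept their direction and their call in each alternative in which they were tested, with adjusted p-values of at most 0.033 (Olfml3 without dLAM library 2) and log2 fold changes from 1.18 (Cst3 without Mono-MΦ library 2) to 8.03 (Fcrls with a pseudocount of 0.1). At a filter of 5 FPKM, 4 members were left and called, and 1247 genes were higher. In the 4 libraries whose Y-linked RNA was lower (Ddx3y at or under 5 FPKM), a split known from earlier work on these data, 1480 genes were higher and 780 lower, and all 7 members were higher. Without single libraries, between 780 (without dLAM library 2) and 1220 genes were lower, against 1204 with all. With median-of-ratios scaling 1798 genes were higher and 1664 lower, and with quantile normalization 1799 and 1702, against 2249 and 1204 as deposited; the shift of the all-gene median under quantile normalization was -0.11. Without the mean-variance trend 1 other microglia gene, Tyrobp, was lower, and with median-of-ratios scaling 1 TGF-beta gene. The log2 fold change of Cd33 turned to 0.0392 on the TPM scale and 0.1776 within the 4 libraries, and without single libraries lay between -0.2248 and 0.3953, that of Adora3 between -0.2125 and 0.0003, and that of Spi1 turned to 0.0210 with quantile normalization; none of these passed and the cause was not tested. The difference of Crybb1 lay between 0.34 (without dLAM library 1) and 1.67 (pseudocount of 0.1). With a replicate block for the numbers in the titles, 1860 genes were higher and 999 lower and all 7 tested members remained called. The deviations of same-numbered libraries correlated at 0.19, -0.15 and -0.09 for numbers 1, 2 and 3. The largest correlation, 0.39, was between dLAM library 3 and Mono-MΦ library 2, both with Ddx3y above 5 FPKM. Such correlations within groups of 3 libraries cannot tell whether libraries shared mice or a batch. Few fragments stand behind Crybb1 in all but dLAM library 1 and behind Sall1 and Fcrls in Mono-MΦ.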
